A study of Mus musculus with 4 samples.

Results

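The presynaptic release machinery was examined through 9 genes, *Snap25*, *Stxbp5*, *Stxbp5l*, *Erc1*, *Erc2*, *Rims1*, *Rims2*, *Ppfia2* and *Syngr1*, whose splicing was followed in mouse brain with and without the splicing regulator PTBP2. Their members are exon trios, each of which is 1 exon together with the exon before and the exon after it. A trio belonged to a gene when its chromosome, strand, middle exon length and both intron lengths matched a GENCODE mouse transcript of release M21. Of the 228333 trios in the deposited tables, 259 were assigned to the 9 genes. They comprise 234 trios labelled constitutive, 21 labelled cassette and 4 alternative 3′ splice sites. The 21 cassette trios describe 19 exons, of which 5 lie in *Erc1*, 4 in *Erc2*, 4 in *Rims1*, 3 in *Rims2*, 2 in *Stxbp5l* and 1 in *Stxbp5*. *Snap25*, *Ppfia2* and *Syngr1* have no cassette-labelled exon.

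A nerve terminal releases transmitter when a docked synaptic vesicle fuses with the plasma membrane. SNAP25 is one of the plasma membrane SNARE proteins that drive this fusion. The tomosyns, encoded by *Stxbp5* and *Stxbp5l*, bind syntaxin and restrain assembly of the fusion complex. RIM proteins (*Rims1*, *Rims2*), the ELKS and CAST proteins (*Erc1*, *Erc2*) and liprin-α2 (*Ppfia2*) are scaffolds of the active zone, where vesicles are held close to calcium channels. Synaptogyrin 1 (*Syngr1*) is a membrane protein of the vesicle itself. PTBP2 is an RNA binding protein of young neurons that binds pyrimidine-rich sequence and often represses the exon nearby.

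Knockout brains were compared with those of littermates, all on a background that the labels spell Mixed C56Bl/6:129S2 (the methods of the study write C57Bl/6). In the NesKO, a floxed *Ptbp2* allele was deleted by Cre from the nestin promoter, which acts in neural progenitors and their descendants. Whole brain was taken from NesKO and wild-type embryos at embryonic day 18 (E18). The methods name 2 brains for each genotype, and the deposited data hold 1 library for each. How the 2 brains were combined is not stated in the sources used here. In the EmxKO, Cre from the Emx1 promoter deleted the same allele in the dorsal forebrain, including cortical projection neurons, so cells of other origin in the cortex keep PTBP2. Cortex was taken from EmxKO animals and littermates labelled wild type at postnatal day 1 (P1), with 1 library each, and the number of animals per P1 library is not given in the sources used here. Only the P1 libraries were strand specific. Age, tissue, Cre line and library protocol therefore changed together and cannot be told apart. With 1 library per group, no difference has a replicate check. The Fisher's exact tests below are two-sided, compare the reads of 2 libraries and do not test the genotypes.

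The targeted exon was examined first. The value used throughout is the PSI (percent spliced in), the deposited inclusion ratio of the exon after SpliceTrap's correction, times 100. *Ptbp2* exon 4 (173 nt, mm9 chr3:119455862-119456034) had a PSI of 0.1 in the NesKO against 99.9 in the E18 wild type. It was 15.9 in the EmxKO and 67.5 in the P1 library labelled wild type. That last library held 604 reads that skip exon 4, or 31.5% skipping by junction reads, against 1 such read in the E18 wild type. The library is therefore called labelled wild type throughout, and each P1 difference below is measured against a library in which part of the *Ptbp2* mRNA lacked exon 4. Reads on distinct exon junctions numbered 48367448 to 83394001 per library, and the 9 genes had a median of 228 to 492 junction reads per trio that passed the minimum of 20. Markers of brain regions outside the cortex summed to 57.9 and 58.6 junction RPM (reads on a gene's distinct junctions per 1000000 on all distinct junctions of the library) at E18 and to 0.674 and 1.5 at P1, with 6 of 8 markers in the tables and 0, 0, 1 and 2 of these at 0 in the NesKO, the E18 control, the EmxKO and the P1 library labelled wild type.

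A trio was compared at a stage only when each library held 20 or more junction reads, and a difference of at least 10 PSI points was counted as a change, with no test. At E18, 224 of the 259 trios passed the read minimum. Of these, 6 differed by at least 10 points, 2 higher and 4 lower in the NesKO, while 2.4% of all trios tested did so. At P1, 244 trios passed, and 8 differed, 6 higher and 2 lower in the EmxKO, against 1.52% of all trios. At E18 the last trio inside the minimum, in *Rims1*, had 21 reads in its lower library and the first outside, in *Stxbp5l*, had 19. At P1 these were 20 and 16 reads, both in *Stxbp5l*.

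Most of the cassette exons of these genes differed by under 10 points between the knockout and the comparison library. At E18, 17 of the 19 exons passed the read minimum. Inclusion was at least 10 points higher in the NesKO for 2 of them (11.8%, against 6.98% of all cassette exons tested) and lower for 2 (11.8%, against 3.94%). At P1, 18 exons passed, and inclusion was at least 10 points higher in the EmxKO for 6 (33.3%, against 6.83%) and lower for 0 (against 2.59%). An adjusted p below 0.05 in Fisher's exact test in addition to 10 points was reached by 1 exon at each stage, against 1.91% and 2.78% of all cassette exons. The median difference over the exons of the 9 genes was 3.50 points at E18 and 2.85 at P1, and over all cassette exons it was 0 and 0.200. In direction alone, 11 of 17 exons were higher in the NesKO, against 48.5% of all cassette exons, and 13 of 18 were higher in the EmxKO, against 52.9%. The other 6 and 5 were lower. Over all cassette exons, those with no difference stay in the denominator, so these percentages run low as a comparison for direction. These counts describe a set of genes chosen with earlier results in view and carry no test. Some exons share a junction (*Rims1* 72 and 84 nt, *Rims1* 72 and 183 nt, *Rims2* 66 and 180 nt) and are not independent. Exons whose length is a multiple of 3 made up 14 of the 17 tested at E18, compared with 50.7% of all cassette exons tested. Such a length keeps the reading frame only where the exon lies wholly in coding sequence, and the *Erc2* exon of 66 nt is listed as partly coding.

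**Figure D1:**
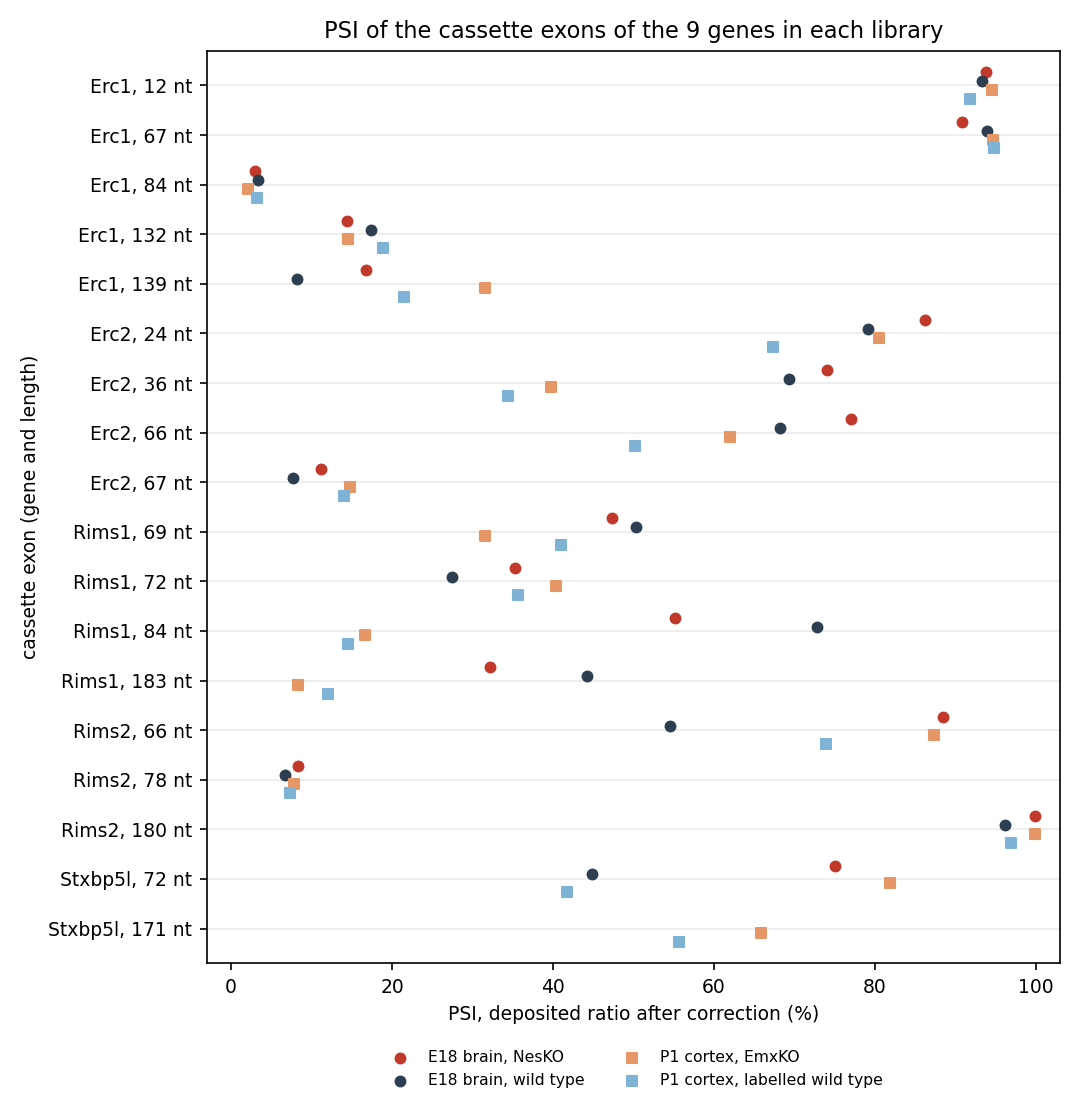
PSI of the 18 tested cassette exons (rows, named by gene and length) in each library, with E18 brain as circles and P1 cortex as squares, knockout in red or orange and wild type or labelled wild type in dark or light blue; each point is 1 library, and a stage under 20 junction reads is left out. In the *Rims2* exon of 66 nt the E18 wild type, at 54.6, stands apart from the other 3 libraries, which lie between 73.9 and 88.5.

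The 66 nt exon of *Rims2* had the largest difference of any exon in these genes that also passed the exact test. RIM2 is an active zone scaffold that binds vesicle-bound Rab3 and calcium channels. The exon (chr15:39349352-39349417, mm9, plus strand) is coding and adds 22 codons without a stop codon in frame. It is shown because its reads carry the clearest difference in the set, with the exon in capitals and 15 bases of each neighboring exon in lower case, 5′ to 3′ from the GENCODE M21 transcripts.
*Rims2*, 66 nt: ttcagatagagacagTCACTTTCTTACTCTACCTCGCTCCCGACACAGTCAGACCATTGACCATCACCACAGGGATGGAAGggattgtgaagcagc
At E18 the NesKO library held 229 reads on the upstream junction of the exon, 66 on the downstream junction and 28 that skip it. The wild type held 180, 48 and 139. PSI was thus 88.5 with *Ptbp2* deleted and 54.6 without the deletion, a difference of 33.9 points (adjusted p = 1.5e-13 over all trios of the stage by Benjamini-Hochberg, Fisher's exact test). By junction reads alone, as the mean of both inclusion junctions over its sum with skipping, the difference was 39.0 points, with a 95% interval of 30.3 to 46.6 that covers counting error only. The intervals of the E18 libraries did not overlap, at 77.9 to 88.7% for the NesKO against 39.0 to 51.2% for its control.

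At P1 the same *Rims2* exon had a PSI of 87.4 in the EmxKO and 73.9 in the library labelled wild type, with 26 and 60 skipping reads. The difference was 13.5 points (adjusted p = 0.091, Fisher's exact test), and 16.1 points by junction reads (95% interval, 7.28 to 24.5). Both knockout libraries thus stood above both comparison libraries. The change of the knockout difference from E18 to P1 had an adjusted p of 1.0 in the Wald test of the reads, adjusted over the 151602 trios that passed the minimum at both stages. After adjustment over so many trios, this does not show that the differences at E18 and P1 were alike. The other cassette exons of *Rims2* differed by under 4 points. The exon of 180 nt had a PSI of 99.9 in both knockouts, 96.2 in the E18 wild type and 97.0 in the P1 library labelled wild type, with 0 skipping reads in each knockout and 7 in each comparison library. Its trio spans the 66 nt exon, so its upstream junction is the one that skips the 66 nt exon. That junction held 34, 148, 40 and 73 reads in the NesKO, E18 wild type, EmxKO and P1 library labelled wild type. Its skipping reads leave out both exons, so its differences are not independent of those of the 66 nt exon. The exon of 78 nt was at 6.7 to 8.3 in the 4 libraries.

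The tomosyn gene *Stxbp5l* had the cassette exon with the largest PSI difference at P1, but few reads. Its exon of 72 nt (chr16:37186737-37186808, mm9, minus strand) is coding and adds 24 codons. A second exon of 171 nt (chr16:37142362-37142532) adds 57 codons, and neither holds a stop codon in frame. Both are shown as above because they are the tomosyn exons that passed 10 points.
*Stxbp5l*, 72 nt: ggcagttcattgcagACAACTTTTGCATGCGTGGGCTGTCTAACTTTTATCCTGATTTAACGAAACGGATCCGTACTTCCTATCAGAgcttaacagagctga
*Stxbp5l*, 171 nt: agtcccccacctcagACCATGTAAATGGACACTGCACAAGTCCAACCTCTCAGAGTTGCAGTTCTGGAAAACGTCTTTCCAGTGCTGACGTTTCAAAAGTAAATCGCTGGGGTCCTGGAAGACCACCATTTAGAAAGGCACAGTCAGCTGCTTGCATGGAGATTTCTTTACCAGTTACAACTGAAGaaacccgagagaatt
The 72 nt exon had a PSI of 75.1 in the NesKO, 44.8 in the E18 wild type, 81.9 in the EmxKO and 41.8 in the P1 library labelled wild type. These rest on 22, 46, 29 and 48 junction reads, of which 4, 21, 4 and 18 skip the exon. Both knockouts were above both comparison libraries, by 30.3 points at E18 and 40.1 at P1. By junction reads the differences were 31.9 points (95% interval, 0.197 to 55.0) and 30.3 points (1.05 to 51.5), and the adjusted p was 1.0 at both stages in Fisher's exact test. Both intervals lie above 0 but reach close to it. Before adjustment, Fisher's exact test gave p = 0.10 at E18 and 0.070 at P1, also not below 0.05.

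For the 171 nt exon of *Stxbp5l*, the E18 libraries held 18 and 15 junction reads, under the minimum, and were not compared. The PSI listed there was 78.1 in the NesKO against 99.9 in the E18 control, the opposite order from P1. At P1 this exon had a PSI of 65.9 in the EmxKO and 55.7 in the library labelled wild type, with 20 and 40 junction reads. The difference by junction reads was 20.3 points with an interval of -12.6 to 41.9, so it was not detectable at this depth (adjusted p = 1.0, Fisher's exact test). The related *Stxbp5* has 1 cassette exon, of 48 nt, with 1 to 3 junction reads in each library, and it was not compared.

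The 3 cassette exons of other genes whose PSI was most like that of the *Stxbp5l* 72 nt exon over the 4 libraries were in *Cnnm3* (99 nt), *Mtmr1* (51 nt) and *Magi1* (89 nt). Their mean absolute difference from it was 4.52, 4.78 and 5.48 points. The *Cnnm3* exon, for example, was at 73.7 in the NesKO, 39.9 in the E18 wild type, 71.9 in the EmxKO and 40.0 in the P1 library labelled wild type. This likeness is a description over 4 values.

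**Figure D2:**
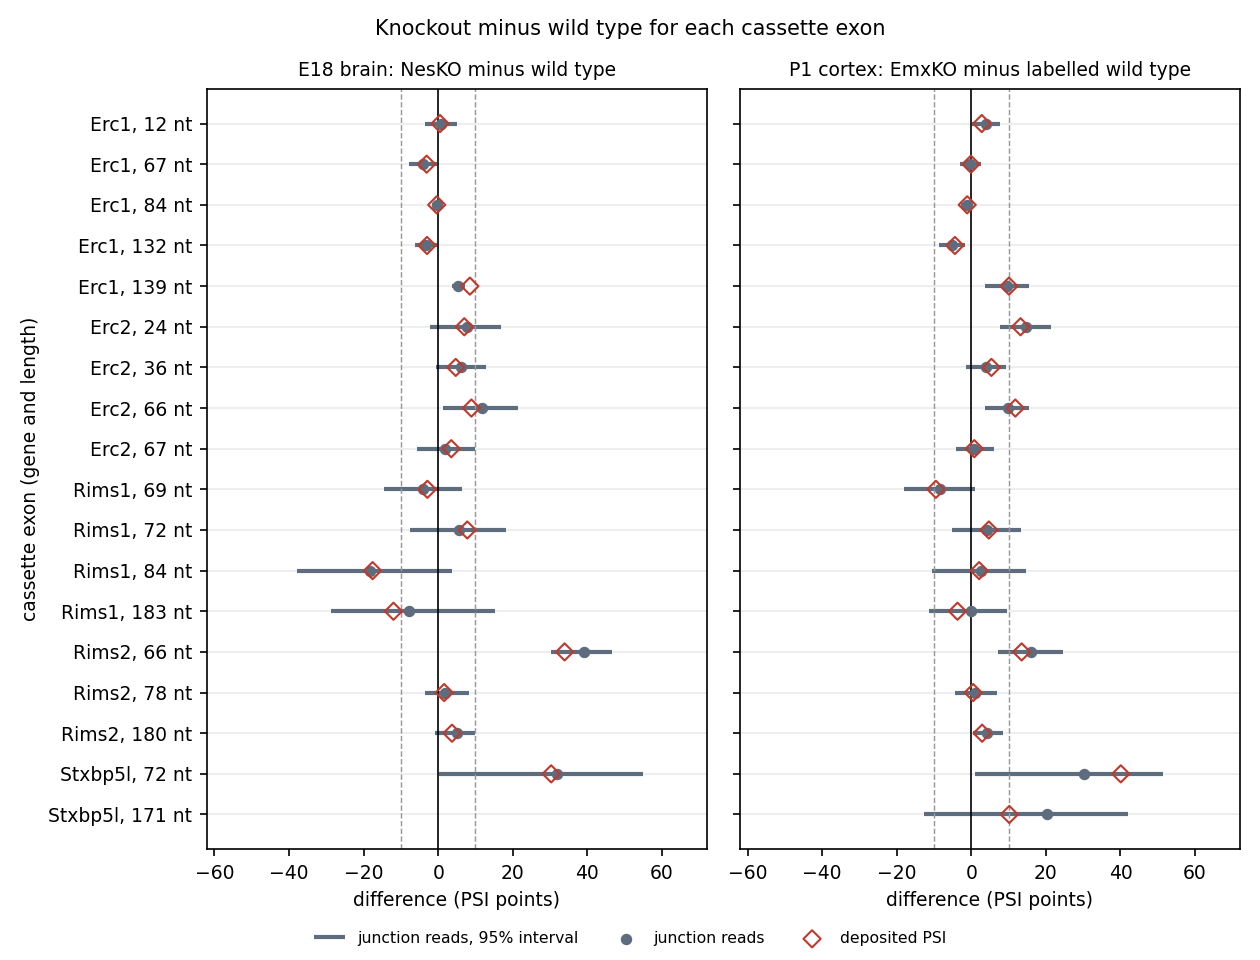
Difference in inclusion, knockout minus wild type at E18 (left) and EmxKO minus the library labelled wild type at P1 (right), in PSI points, for each tested cassette exon; diamonds are the deposited PSI, dots the junction reads and bars their 95% interval for counting error, with dashed lines at 10 points either way. The *Rims2* 66 nt exon at E18 lies at 33.9 points with a bar that stays above 30, while the bars of the *Stxbp5l* exons are wide.

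*Erc2*, which encodes the CAST scaffold, had 4 cassette exons, and inclusion was higher in the knockout for all 4 at both stages by the deposited PSI. The shortest, a coding exon of 24 nt (chr14:28589345-28589368, mm9, plus strand), adds 8 codons and is shown because it was the 1 exon of the set past both 10 points and the exact test at P1.
*Erc2*, 24 nt: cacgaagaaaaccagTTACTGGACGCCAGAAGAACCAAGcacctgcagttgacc
Its PSI was 86.2 in the NesKO, 79.2 in the E18 wild type, 80.5 in the EmxKO and 67.3 in the P1 library labelled wild type. The reads that skip it numbered 28, 57, 94 and 213 in that order. The difference was 7.0 points at E18 (adjusted p = 1.0) and 13.2 at P1 (adjusted p = 0.013, both from Fisher's exact test). By junction reads the P1 difference was 14.8 points (95% interval, 7.79 to 21.4). The tables list 201 to 515 reads on the upstream junction of this exon and 0 on the downstream one. The mean of both junctions, which the test uses, is therefore lower than the upstream junction alone.

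The 66 nt exon of *Erc2* (chr14:29130435-29130500), which the annotation lists as partly coding, was included at a PSI of 77.1 in the NesKO against 68.2 in the E18 wild type, with 37 and 79 skipping reads. At P1 its PSI was 62.0 in the EmxKO against 50.2 in the library labelled wild type, with 207 and 384 skipping reads. The differences were 8.9 points (adjusted p = 1.0) and 11.8 points (adjusted p = 0.24, Fisher's exact test). By junction reads they were 11.7 points (95% interval, 1.27 to 21.4) and 9.71 points (3.71 to 15.6). A coding exon of 36 nt was at 74.1 and 69.4 at E18 and at 39.8 and 34.4 at P1, knockout first. For this exon the gap between the stages was larger than either knockout difference, at -35.0 points for the comparison library of P1 minus that of E18. An exon of 67 nt outside the annotated coding transcripts was at 7.7 to 14.8.

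Of the *Erc1* cassette exons, 1 passed 10 points. *Erc1* encodes ELKS, the widely expressed relative of CAST. The exon of 139 nt (chr6:119775699-119775837) lies in the untranslated part of its transcripts. Its PSI was 16.7 in the NesKO, 8.2 in the E18 wild type, 31.6 in the EmxKO and 21.5 in the P1 library labelled wild type. The E18 difference of 8.5 points had an adjusted p of 8.7e-07 and the P1 difference of 10.1 points an adjusted p of 0.23 in Fisher's exact test. By junction reads these were 5.40 points (95% interval, 3.65 to 7.27) and 9.70 points (3.68 to 15.6). The coding exons of 12, 84 and 132 nt differed by at most 4.4 points. The 12 nt exon was near full inclusion at 91.8 to 94.6, the 84 nt exon near full skipping at 2.1 to 3.3, and the 132 nt exon was lower in the knockout at both stages, at 14.4 against 17.4 at E18 and 14.5 against 18.9 at P1 (adjusted p = 1.0 and 0.45, Fisher's exact test). The *Erc1* exon of 67 nt was at 90.8 to 94.8.

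*Rims1*, the other RIM gene, held the 2 exons with inclusion at least 10 points lower in the NesKO. Both are coding, on the minus strand of chromosome 1, and free of stop codons in frame, and they are shown because they went the other way from the *Rims2* exon. The 84 nt exon (chr1:22402292-22402375) adds 28 codons and that of 183 nt (chr1:22388680-22388862) adds 61.
*Rims1*, 84 nt: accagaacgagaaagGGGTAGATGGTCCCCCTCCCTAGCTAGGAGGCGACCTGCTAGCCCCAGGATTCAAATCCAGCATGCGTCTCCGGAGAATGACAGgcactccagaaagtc
*Rims1*, 183 nt: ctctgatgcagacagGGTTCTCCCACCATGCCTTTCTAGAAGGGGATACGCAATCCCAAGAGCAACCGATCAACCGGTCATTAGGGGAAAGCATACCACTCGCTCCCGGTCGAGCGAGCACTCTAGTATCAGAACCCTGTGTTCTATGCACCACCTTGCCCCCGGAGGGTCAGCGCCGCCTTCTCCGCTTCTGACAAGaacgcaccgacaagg
Both trios have the *Rims1* 72 nt cassette exon as a neighbor, so their PSI covers only transcripts that include the 72 nt exon. That exon was itself at a PSI of 27.5 to 40.4 in the 4 libraries. For the 84 nt exon the PSI was 55.2 in the NesKO against 72.8 in the E18 wild type, with 59 and 63 junction reads. The difference by junction reads was -18.3 points with an interval of -37.8 to 3.57, and the adjusted p was 1.0 in Fisher's exact test. At P1 its PSI was 16.6 in the EmxKO and 14.5 in the library labelled wild type. The 183 nt exon was at 32.2 and 44.2 at E18, with 33 and 45 junction reads, and at 8.3 and 12.0 at P1 (adjusted p = 1.0 at both stages, Fisher's exact test). Neither E18 difference was detectable at this depth. The larger gap of both exons lay between the stages, since the comparison library of P1 minus that of E18 came to -58.3 points for the 84 nt exon and -32.2 for the 183 nt exon.

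The remaining *Rims1* cassette exons were under 10 points. The 72 nt exon was at 35.3 and 27.5 at E18 and at 40.4 and 35.7 at P1, knockout first. Its trio spans the 84 nt exon, so its upstream inclusion junction is the one that skips the 84 nt exon. Its reads there were 21, 11, 52 and 43 in the NesKO, E18 wild type, EmxKO and P1 library labelled wild type. The 84 nt exon's own skipping reads were 21, 13, 55 and 45. The downstream inclusion junction of the 72 nt exon likewise skips the 183 nt exon. It held 38, 31, 110 and 69 reads, while the 183 nt exon's own trio lists 20, 23, 82 and 52 skipping reads. The differences of these exons are thus not independent. In another trio, labelled constitutive and beside the 183 nt exon, the 72 nt exon was at 99.9 in both E18 libraries. The 69 nt exon was at 47.4 and 50.3 at E18 and at 31.5 and 41.0 at P1, the largest difference under the cutoff, at 9.5 points lower in the EmxKO (adjusted p = 1.0, Fisher's exact test).

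**Figure D3:**
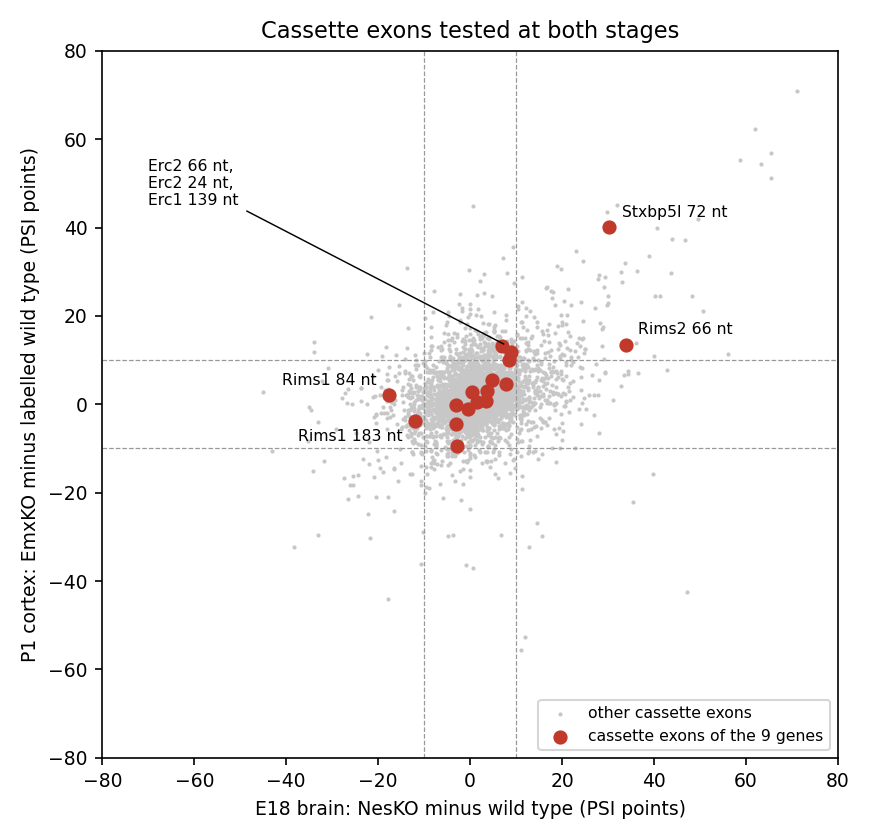
Difference in PSI at E18 (horizontal axis, NesKO minus wild type) against P1 (vertical axis, EmxKO minus the library labelled wild type) for the 6474 cassette exons tested at both stages, with the 17 of the 9 genes in red and dashed lines at 10 points. The *Rims2* 66 nt and *Stxbp5l* 72 nt exons are the 2 members past 10 points at both stages, both with higher inclusion in the knockout.

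Of the 17 exons tested at both stages, 11 were higher in both knockouts, 5 were lower in both and 1 changed sign. None of these 17 exons reached an adjusted p below 0.05 in the Wald test between the stages, with that same adjustment. This does not show that their differences were alike at both stages. Of the trios labelled constitutive, several of which can share an exon, 203 were compared at E18 and 221 at P1, and the PSI was at least 95 in both libraries for 188 and 204 of them. Differences of 10 points were seen in 2 at each stage, with 0 of these past the exact test. The alternative 3′ splice sites that could be compared differed by at most 3.9 points.

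*Snap25* is best known for its mutually exclusive exons 5a and 5b, which encode alternative versions of the same stretch of the protein, and of which 5b prevails in the adult brain. Both are 118 nt long and differ at 31 positions (73.7% identical). Exon 5b lies at chr2:136595793-136595910 in mm9. In the GENCODE annotation on GRCm38, exon 5a ends 196 bases before exon 5b begins. The pair is shown because reads must tell them apart, with the positions that differ in capitals.
*Snap25* exon 5a: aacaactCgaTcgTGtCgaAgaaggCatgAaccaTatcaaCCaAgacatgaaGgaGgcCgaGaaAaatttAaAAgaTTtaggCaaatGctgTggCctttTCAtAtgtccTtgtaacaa
*Snap25* exon 5b: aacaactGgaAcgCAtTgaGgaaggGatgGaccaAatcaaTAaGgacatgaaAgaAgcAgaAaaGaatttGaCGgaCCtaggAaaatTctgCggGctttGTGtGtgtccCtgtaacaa
The trio of exon 5a was not analysed here, so the share of each exon could not be formed. In its place, the reads joining exon 5b to exon 6 were set against those joining exon 6 to exon 7, which both forms of the transcript share. There were 694 against 755 reads in the NesKO, or 91.9 per 100 (95% interval, 82.9 to 102), and 1680 against 1955 in the E18 wild type, or 85.9 (80.5 to 91.7). At P1 there were 516 against 1016 in the EmxKO, or 50.8 (45.7 to 56.5), and 862 against 2177 in the library labelled wild type, or 39.6 (36.6 to 42.8). The P1 value was higher in the EmxKO by 11.2, with intervals that do not overlap, and the E18 intervals overlap. The other junction of exon 5b, from exon 4, held fewer reads, at 35.4 in the NesKO, 33.2 in the E18 control, 23.8 in the EmxKO and 15.9 in the P1 library labelled wild type per 100 reads from exon 6 to exon 7. The order within each stage was the same as for the junction to exon 6. Against the reads from exon 7 to exon 8 the E18 values were 72.9 with the deletion against 89.1 without it, the opposite order, so no direction is drawn at E18. Against that junction the P1 values were 46.8 and 40.5, in the same order as before but closer. No intervals were formed for these alternatives. Intervals that do not overlap were thus seen at P1 only against the junction from exon 6 to exon 7, which was chosen after seeing the data. The ratio is not a share of transcripts.

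*Syngr1* ends in either of 2 last exons after exon 3 (chr15:79942029-79942174, mm9). The share of reads leaving exon 3 for the shorter one, of 275 nt, was 14.7% (95% Wilson interval, 12.4 to 17.3%) in the NesKO, against 9.34% (7.35 to 11.8%) in the E18 control. At P1 it was 19.6% (17.3 to 22%) in the EmxKO and 16.3% (13.9 to 19.0%) in the library labelled wild type. The E18 intervals did not overlap and those of P1 did. The other reads went to the last exon of 3647 nt, with 602 to 864 reads per library.

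**Figure D4:**
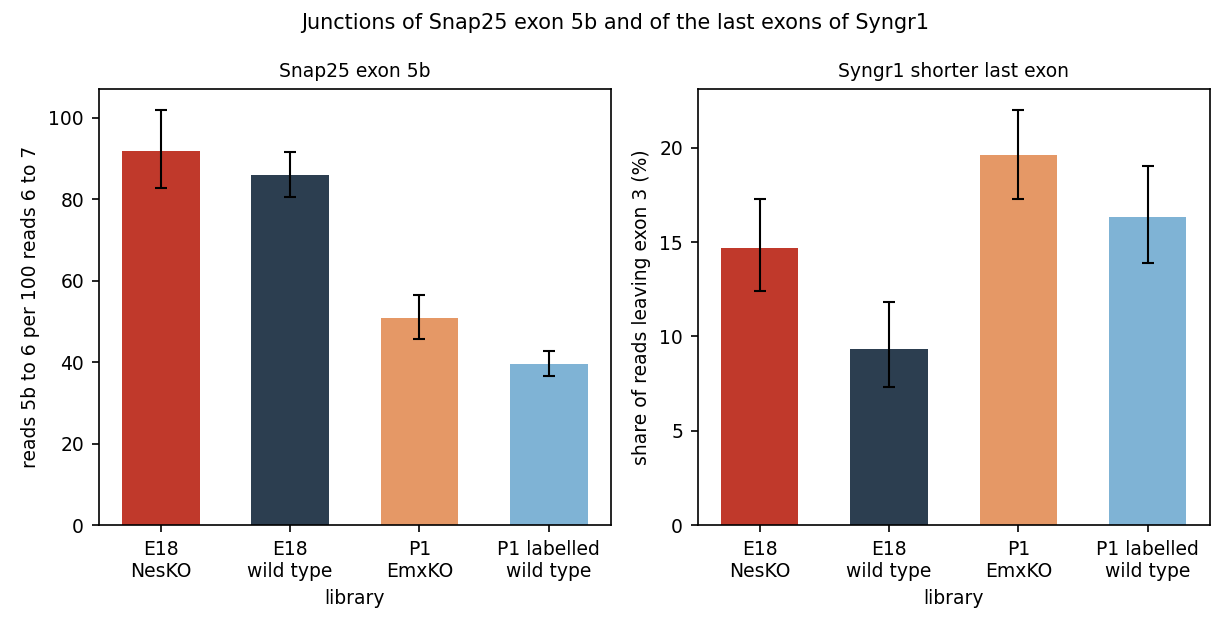
Left, reads joining *Snap25* exon 5b to exon 6 per 100 reads joining exon 6 to exon 7; right, percent of reads leaving *Syngr1* exon 3 that join the shorter last exon; bars are single libraries and whiskers 95% intervals for counting error. The *Snap25* values are 91.9 and 85.9 at E18 and 50.8 and 39.6 at P1, and the *Syngr1* shares are 14.7 and 9.34% at E18 and 19.6 and 16.3% at P1, knockout first.

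The amount of mRNA behind these values was described by its level in junction RPM, as defined above for the markers. This level depends on the number and length of exons and is comparable for 1 gene across libraries only. In bulk RNA, fewer cells of a type and less RNA per cell cannot be told apart. *Snap25* was at 90.2 in the NesKO, 193 in the E18 wild type, 64.3 in the EmxKO and 127 in the P1 library labelled wild type, a ratio of knockout to comparison library of 0.468 and 0.506. Junctions of exon 5a are not in this sum. On the junction from exon 6 to 7 alone, which both forms share, the levels were 15.6, 39.0, 12.2 and 26.1 RPM in the same order, so both knockout libraries were lower on this measure too.

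Among the tomosyns, *Stxbp5l* was at 7.32 and 11.3 RPM at E18 and at 6.73 and 16.4 at P1, knockout first, and *Stxbp5* at 31.0 and 35.5 and at 76.2 and 107. Both were lower in both knockouts. Liprin-α2 (*Ppfia2*) was at 104 and 143 at E18 and at 87.9 and 178 at P1, with ratios of 0.724 and 0.495. *Erc2* was at 77.2 and 126 at E18 and at 88.0 and 135 at P1, with ratios of 0.613 and 0.650. *Rims2* was at 60.5 and 75.8 at E18 and at 48.4 and 55.5 at P1, with ratios of 0.798 and 0.871.

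The remaining genes did not go the same way at both stages. *Erc1* was at 253 and 314 RPM at E18 and at 173 and 154 at P1. *Rims1* was at 110 and 156 and at 91.8 and 79.6. For *Syngr1* the E18 levels of 39.0 and 39.1 were alike and the P1 levels were 34.7 and 25.7. Between the E18 and P1 comparison libraries, *Stxbp5* differed most by ratio, at 35.5 and 107 RPM. Cell type markers moved beside these levels. Neuronal markers summed to 1988 and 2292 RPM at E18 and to 3094 and 3198 at P1, knockout first (7 of 7 markers in the tables, none at 0). The sums are led by *Tubb3* and *Stmn2*, and the single markers spread widely. In the NesKO 6 of the 7 were lower, with ratios from 0.470 (*Syt1*) to 1.08 (*Stmn2*), and in the EmxKO 5 were lower, with ratios from 0.579 (*Map2*) to 1.26 (*Tubb3*). Microglial markers (5 of 6 in the tables, none at 0) summed to 113 and 73.8 at E18 and to 61.4 and 39.6 at P1, higher in both knockouts. Astrocyte markers (4 of 4) summed to 220 and 217 and to 134 and 114, but *Gfap* had ratios of 2.78 and 2.35 and *Aqp4* of 0.608 and 0.565. Markers of progenitors (6 of 6) summed to 770 and 858 and to 357 and 492, with 5 of 6 lower in the NesKO, *Slc1a3* most (0.484), and 3 of 6 lower in the EmxKO. Those of cortical projection neurons (5 of 6) summed to 188 and 232 and to 498 and 571, with 4 of 5 lower in each knockout. The oligodendrocyte lineage (5 of 6) was at 68.3 and 98.1 and at 100 and 82.2, and vessels and blood (4 of 6) at 1518 and 1200 and at 220 and 219, with no marker at 0 in these lists. The E18 sums for vessels and blood are led by the hemoglobin gene *Hbb-bt*, at 1406 and 1079. The other markers there had E18 ratios of 0.789 (*Kdr*), 1.04 (*Pecam1*) and 1.62 (*Alas2*). The part of cell composition in the levels and PSI values was not tested.

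**Figure D5:**
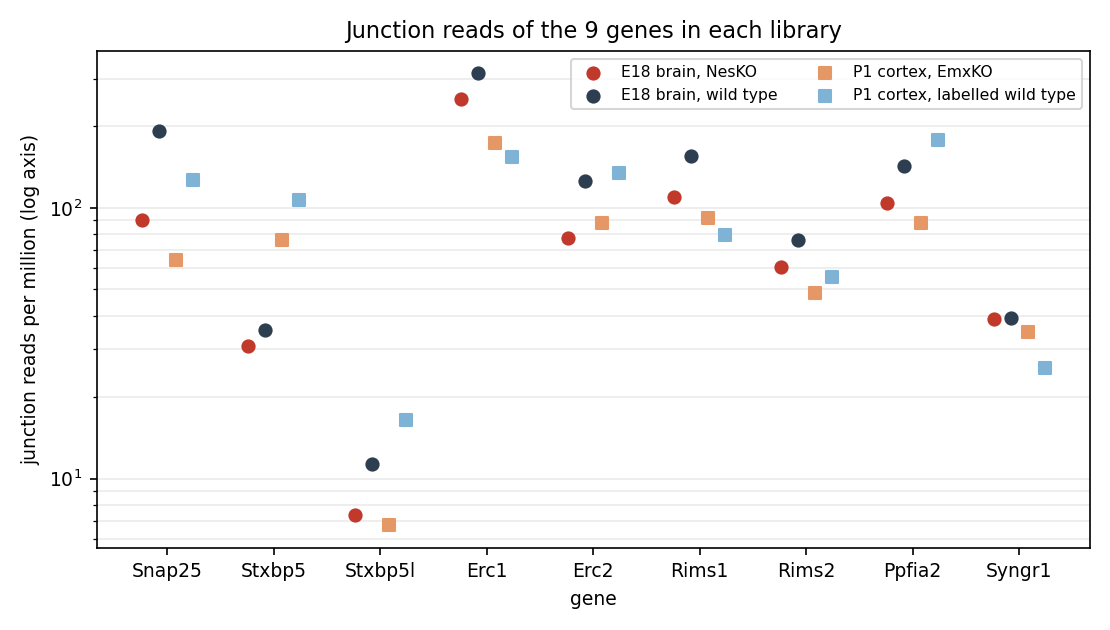
Junction RPM (log axis) of each of the 9 genes in the 4 libraries, with E18 brain as circles and P1 cortex as squares and 1 point per library; heights are comparable within a gene and not between genes. *Snap25* is at 90.2 and 64.3 in the knockouts and at 193 and 127 in the comparison libraries.

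The wider release apparatus was described through 82 other presynaptic genes, which include SNAREs and their partners, synaptotagmins, complexins, UNC13 proteins, Rab3 regulators and vesicle proteins. They hold 70 cassette exons, of which 66 were compared at E18 and 67 at P1, in 35 genes at each stage. At E18, 6 were at least 10 points higher in the NesKO (9.09%, against 6.98% of all cassette exons) and 3 lower (4.55%, against 3.94%), and 1 of these had an adjusted p below 0.05 in Fisher's exact test (1.52%, against 1.91%). At P1, 3 were higher (4.48%, against 6.83%) and 2 lower (2.99%, against 2.59%), and 3 of these were past the exact test (4.48%, against 2.78%). The median difference was 0.150 points at E18 and 0.1000 at P1.

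In this list, 4 exons passed 10 points at E18 and again at P1 with the same sign. The 132 nt exon of *Syt7*, a calcium sensor of release, was at 29.1 in the NesKO, 52.4 in the E18 wild type, 53.6 in the EmxKO and 65.9 in the P1 library labelled wild type (adjusted p = 4.4e-17 at E18 and 0.007 at P1, Fisher's exact test). The 96 nt exon of *Rab3ip*, a Rab exchange factor, was at 65.6, 82.1, 62.2 and 76.8 in the same order (adjusted p = 0.10 and 0.0019, Fisher's exact test). Both exons were thus included less in both knockouts. In the other direction went the 9 nt exon of *Madd*, an exchange factor for Rab3, at 71.4, 53.7, 72.4 and 60.2, and a 46 nt exon of the syntaxin gene *Stx3*, at 65.7, 53.8, 48.6 and 33.6 (adjusted p = 1.0 for both exons at both stages, Fisher's exact test). The 54 nt exon of *Madd*, named after its values were seen, was the remaining exon past both 10 points and the exact test at P1, at 87.6 in the EmxKO and 74.9 in the library labelled wild type (adjusted p = 2.9e-08), and at E18 it was at 92.6 and 85.0 (adjusted p = 0.45, Fisher's exact test).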

How the data were processed

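PolyA+ RNA was sequenced from whole E18 brains (NesKO, wild type) and from cortex of EmxKO animals and littermates labelled wild type at P1, with 1 library per group and paired reads of 100 nt. With SpliceTrap, the authors aligned reads against exon trios, and each library has its own deposited table. Inclusion ratios were deposited as a fraction from 0 to 1, both uncorrected and corrected by SpliceTrap. Reads on the 3 junctions were deposited as counts, without normalization. The submitters' processing notes also name CASAVA, TopHat, Cufflinks and the build mm9. Versions are not given in the sources used here.

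Exon positions (mm9) come from the tables and are written with the first base as 1. Trios carry no gene names and were named by lengths matched to GENCODE release 21 on GRCm38, with no conversion of coordinates. A further 26 trios that share only an exon end with a named trio of the 9 genes were kept apart. Exons were represented by the trio with the most junction reads. At least 20 junction reads were required in both libraries of a stage. The inclusion reads, the mean of 2 junctions, were rounded for Fisher's exact test (two-sided), with Benjamini-Hochberg adjustment over all trios of the stage, 159345 at E18 and 159174 at P1. The stages were compared by a Wald test on the log odds ratios with 0.5 added to each count, adjusted over the 151602 trios tested at both stages. Wilson intervals and Newcombe intervals of differences, at the 95% level, cover counting error only, since PCR copies are not independent molecules. At the median depth of the members' cassette exons, 3 reads are 0.751 to 1.31% of the junction reads.

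The members, gene lists and markers were chosen with earlier results of these data known. Cassette exons of the members were all given or counted, those past 10 points with their values in 4 libraries, trios of other classes only with an adjusted p below 0.05 in addition, and list exons when they passed 10 points in 1 direction at both stages. The planned share of *Snap25* exon 5b was replaced, because the exon 5a trio was not analysed here, by a ratio of junctions chosen after seeing the data, as were its alternatives with the junction from exon 4 and the junction from exon 7 to 8. Intron sequence was not analysed here. The calculations used Python 3.11.15, numpy 2.4.6, pandas 2.3.3, scipy 1.17.1 and matplotlib 3.10.9 and were tested on simulated data.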

Additional observations from a re-analysis of the deposited data

Results flagged for a closer look

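The knockout difference was compared between the stages for 25 named exons by the Wald test of the reads, with adjustment over all 151602 trios tested at both stages. An adjusted p below 0.05 was reached by 1 of them, *Ptbp2* exon 4, at 1.6e-05. Its PSI was 99.8 points lower in the NesKO than in the E18 wild type and 51.6 points lower in the EmxKO than in the P1 library labelled wild type. The EmxKO kept a PSI of 15.9, and the library labelled wild type had a PSI of 67.5. Which cells or alleles the reads without exon 4 in that library came from was not tested. No exon of the 9 presynaptic genes met this criterion. Outlying samples were not searched for, as each group has 1 library.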

How the results depend on the processing

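No paired analysis was possible because each group has 1 library, and for the same reason no library could be left out; without the P1 library labelled wild type no P1 comparison remains. The count of cassette exons of the 9 genes at least 10 points apart was 4 at E18 and 6 at P1. With a minimum of 50 junction reads these counts were 2 and 4, and by junction reads they were 4 and 4. With 20 points they were 2 and 1, and with an adjusted p below 0.05 in addition they were 1 and 1. For all trios of the 9 genes, 6 and 8, the counts were 2 and 5 with 50 reads, 2 and 1 with 20 points, and 1 and 1 with the exact test in addition, and the P1 count was 4 by junction reads. For the list of 82 genes, 9 and 5, they were 3 and 0 with 20 points and 1 and 3 with the exact test in addition. The other settings chosen in advance (the ratio before correction, a minimum of 10 reads or none, and the trio with the most skipping reads) stayed within 1.5 times. By junction reads, the split into higher and lower at E18 was 3 and 1 for the cassette exons (2 and 2 by PSI). It was 3 and 2 for the trios (2 and 4) and 5 and 5 for the list (6 and 3). At P1 it was 4 and 0 for the cassette exons (6 and 0), 4 and 0 for the trios (6 and 2) and 4 and 2 for the list (3 and 2). Over the named exons, 169 of 172 values moved by no more than the shorter arm of their counting interval, 3 moved further and 0 called values changed sign. Of the 172, 43 use the trio with the most skipping reads, which repeated the main value each time and so shows nothing. Exons with few reads have wide intervals that large moves stay within. At P1 the *Stxbp5l* 171 nt exon differed by 10.2 points by PSI, 20.3 by junction reads and 6.2 before correction, and was not among the 3. Chosen after seeing the data, the inclusion junction with more reads gave 4 and 7 cassette exons, and the addition of trios that share an exon end gave 9 and 11 trios. The *Snap25* ratio at E18, higher in the NesKO by 6.0, became -16.2 against the junction from exon 7 to 8, and the cause was not tested. From exon 4 to exon 5b it was 2.2, and the P1 value of 11.2 became 6.3 and 7.9 in these settings. The settings meant for the exon 5b share were not run. Depth limits the tomosyn genes most, with 1 to 3 junction reads per library for the *Stxbp5* exon, which was not compared, and 15 to 48 for those of *Stxbp5l*.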

Other observations

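A further 26 trios were tied to the 9 genes only by an exon end that they share with a named trio, and their values were looked at after those of the members. An alternative 3′ splice site of *Erc2* that adds 10 nt (chr14:28893308-28893317, mm9) had a PSI of 63.4 in the NesKO, 30.6 in the E18 wild type, 77.2 in the EmxKO and 67.2 in the P1 library labelled wild type. The E18 difference of 32.8 points had an adjusted p of 0.15 and the P1 difference of 10 points an adjusted p of 1.0 in Fisher's exact test. At E18 the reads that skip the added bases numbered 17 and 89.

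Some exons labelled constitutive were skipped in part in every library. The 92 nt exon of *Ppfia2* (chr10:106366110-106366201) had a PSI of 96.9 in the NesKO, 95 in the E18 wild type, 87.7 in the EmxKO and 85 in the P1 library labelled wild type, with 22, 33, 71 and 163 skipping reads. The 81 nt exon of *Rims1* (chr1:22733769-22733849) was at 85.6, 84.6, 80.5 and 72.5 in the same order, with 17, 40, 20 and 26 skipping reads. A second trio of this exon, tied to *Rims1* by a shared exon end, spans the 69 nt exon. There its PSI was 57.4, 56.4, 76.7 and 73.0, with 130, 248, 52 and 56 skipping reads. The trios of this exon thus placed E18 and P1 in opposite order. For neither exon did a knockout difference pass the exact test at either stage (adjusted p = 1.0). These exons were picked for their skipping reads after the values were seen.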
